A study of Homo sapiens with 4 samples.

Results

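The mRNAs of 45 proteins of the large (60S) ribosomal subunit were followed in RNA from MiaPaCa, a human pancreatic cancer cell line. They are the genes RPL3 to RPL41 and the stalk genes RPLP0, RPLP1 and RPLP2 in a fixed list of Ensembl IDs. All 45 were found among the 60676 IDs of each count table. RPL36A, which also encodes a large-subunit protein, is not in the list and was not analysed here. The cells carried variant 1 or variant 2 of SRP9, a small protein that binds the Alu domain of the signal recognition particle (SRP) RNA. Each variant had a nuclear localisation signal and a 3xFLAG tag, was introduced by electroporation of an acGFP1 plasmid, and was expressed in cells selected with Geneticin and sorted for green fluorescence. For each variant there was 1 library of RNA that came down with the SRP9 protein (RNA immunoprecipitation, RIP) and 1 library of whole-cell RNA from the same experiment (input), which is the reference for the RIP library. The 4 libraries are thus RIP variant 1, RIP variant 2, input variant 1 and input variant 2, with no replicate of any of them. The fluorescent reporter and the selection were common to all 4, and a precipitation from cells without a tagged SRP9 was not analysed here.

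Ribosomal proteins are made in large and nearly equal amounts, and their mRNAs are among the most abundant of a growing cell. These mRNAs typically begin with a C followed by a run of pyrimidines, the 5′ terminal oligopyrimidine (TOP) motif, through which the mTORC1 kinase and the LARP1 protein adjust their translation to amino acid supply. The proteins encoded are imported into the nucleus, where most of them join precursor ribosomal RNA in the nucleolus. The finished large subunit carries the exit tunnel at whose mouth SRP meets the growing protein chain, with RPL23A and RPL35 at its docking site.

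The starts of 10 of these mRNAs are printed to show the common 5′ end of the family: 3 of the genes least lowered in RIP (RPL31, RPL34, RPL11), 4 of those most lowered (RPL21, RPL4, RPLP0, RPL3) and the 3 whose RIP libraries differed most between variants (RPLP1, RPL35, RPL12). Each window holds 15 bases before and the first 15 bases from the annotated transcript start, 5′ to 3′ on the gene's strand, from RefSeq on build GRCh38.p14. Capitals mark the uninterrupted run of C and T letters that opens the transcript where its first base is C. Where a gene has several annotated starts, the window with the longest such run is shown.
RPL31, chr2:101002274-101002303, plus strand: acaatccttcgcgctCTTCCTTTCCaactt
RPL34, chr4:108620561-108620590, plus strand: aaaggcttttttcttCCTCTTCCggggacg
RPL11, chr1:23691791-23691820, plus strand: cggaagctccgctttCTCTTCCTgctctcc
RPL21, chr13:27251543-27251572, plus strand: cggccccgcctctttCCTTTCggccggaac
RPL4, chr15:66504841-66504870, minus strand: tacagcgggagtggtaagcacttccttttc
RPLP0, chr12:120201097-120201126, minus strand: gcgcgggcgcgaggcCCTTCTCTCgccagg
RPL3, chr22:39319609-39319638, minus strand: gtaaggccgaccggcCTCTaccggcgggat
RPLP1, chr15:69452803-69452832, plus strand: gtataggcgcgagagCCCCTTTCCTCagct
RPL35, chr9:124861943-124861972, minus strand: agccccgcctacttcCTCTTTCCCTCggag
RPL12, chr9:127451392-127451421, minus strand: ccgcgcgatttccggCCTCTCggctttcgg

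A start sequence was matched for 37 of the 45 genes. Genes without an entry included RPL5, RPL7, RPL8, RPL23, RPL23A, RPL30 and RPL37. An opening C within a run of at least 5 C or T letters was present at an annotated start of 27 of the 37 (73.0%), against 5.14% of all 27305 genes in the table. The letters CTTTC, searched on both strands of the 30-base window and overlapping the opening run in many genes, were present for 21 of the 37 (56.8%) and for 9.27% of all genes. Both searches were chosen after the sequences had been read. They describe annotated letters, not the starts used in MiaPaCa cells. RPL4 had no such run at its annotated start, and that of RPL3 was 4 letters long.

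The large-subunit mRNAs made up 0.431% of RIP variant 1 (95% exact interval by Clopper-Pearson 0.425% to 0.438%) and 0.698% of RIP variant 2 (0.690% to 0.705%), against 2.54% in input variant 1 (2.53% to 2.54%) and 2.50% in input variant 2 (2.499% to 2.51%). The share was thus 5.88 times smaller in RIP than in input with variant 1, and 3.59 times smaller with variant 2. These intervals cover counting error only, since amplified reads are not independent molecules. The libraries held 3921361 and 5211354 counts in RIP variants 1 and 2, and 50454080 and 58815384 in inputs 1 and 2. Single members had 11.4 to 2521 counts in the RIP libraries and 3421 to 106869 in the inputs, so no member was at 0 anywhere. Among the 1000 IDs with the most counts, RIP variants 1 and 2 had 17 and 32 members, and their inputs 38 and 39. Counts are not corrected for transcript length, so a higher count of one gene than of another does not show more molecules.

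**Figure D1:**
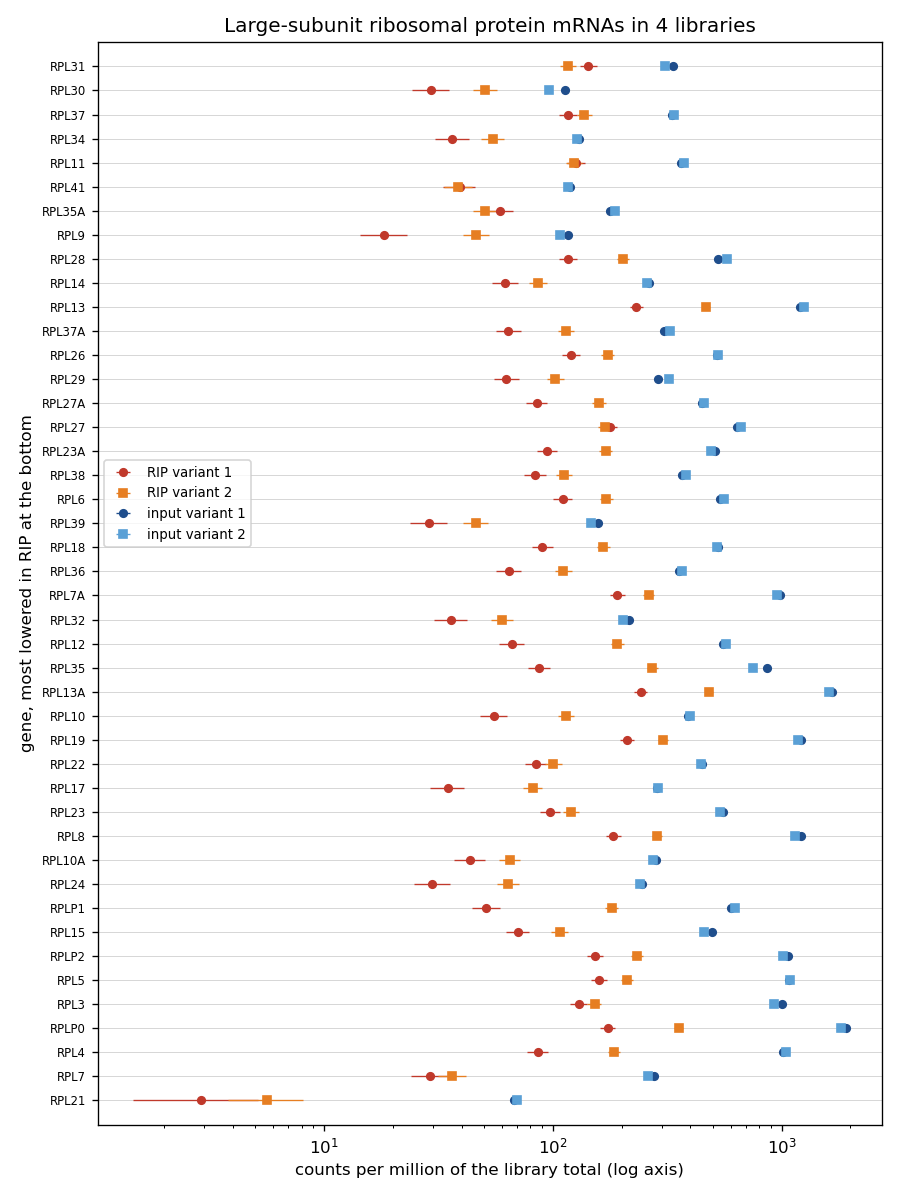
CPM on library totals (log axis) for 44 of the 45 genes, 1 point per library, with 95% exact Poisson intervals as bars. Genes are ordered by fold change, the most lowered in RIP at the bottom. Both RIP points lie left of both input points for every gene shown, and the inputs nearly coincide.

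Every member was lower in RIP than in input. In CPM, counts scaled to a common library total, the members ranged from 2.91 to 242 in RIP variant 1 (median 85.2) and from 5.66 to 484 in RIP variant 2 (median 124). They ranged from 67.8 to 1907 in input variant 1 (median 448) and from 69.6 to 1817 in input variant 2 (median 457). Gene by gene, both RIP values lay below both input values for all 45, against 15.0% of all tested IDs and 90.3% of the 3001 other IDs in the members' range of input level, described below. The fitted comparison of both RIP libraries with both inputs called all 45 lower and 0 higher (quasi-likelihood fit in edgeR, adjusted p by Benjamini-Hochberg from 0.00060 to 0.0042). Over all 41622 IDs tested, 15.8% were called lower and 49.5% higher. The variants serve as the 2 samples of each fraction here, so these p-values measure the spread between libraries of different constructs. A RIP value is a share of the precipitated RNA, so a value below that of input is not a lower level in the cells.

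The size of the change depends on the scaling. After TMM scaling, which sets the libraries level on a trimmed, weighted mean of log ratios, the median log2 fold change of the members was -3.22 (range -5.16 to -2.49), a 9.31-fold lower level in RIP. On library totals it was -2.04 (range -3.99 to -1.31), with all 45 still called lower (adjusted p up to 0.017), as were 7.82% of all tested IDs. With each RIP library paired to its input as a block, all 45 were also called lower, against 12.9% of all tested IDs. Over all tested IDs the median was 3.65 after TMM scaling and 4.83 on library totals, a shift of 1.17 between the scales. These medians depend on which IDs are tested. When only the 15450 IDs reaching 50 counts in both inputs were fitted and TMM-scaled, their median was -0.03. Of these, 3658 were called lower and 3421 higher. CPM values below are on library totals and log2 fold changes are after TMM scaling.

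Nearly all other genes of similar input level were lower in RIP as well. The members' mean input level ran from 68.7 to 1862 CPM. Of 3001 other tested IDs in that range, 97.7% were called lower and 0.167% higher, with a median log2 fold change of -2.69. On library totals 74.8% of them were called lower, with a median of -1.51. Most of these IDs lay at the low end, with a median of 130 CPM in input variant 1 (members 448 CPM). Within the members' interquartile range of input level (278 to 651 CPM), 100% of 398 other IDs were called lower. Their median was -3.41 (10th to 90th percentile -4.17 to -2.39), and that of the 23 members there was -3.11. The ranges were added after the results were known. The lower level in RIP is therefore at the background of equally abundant IDs, and the count of 45 is no result about ribosomal protein mRNAs.

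**Figure D2:**
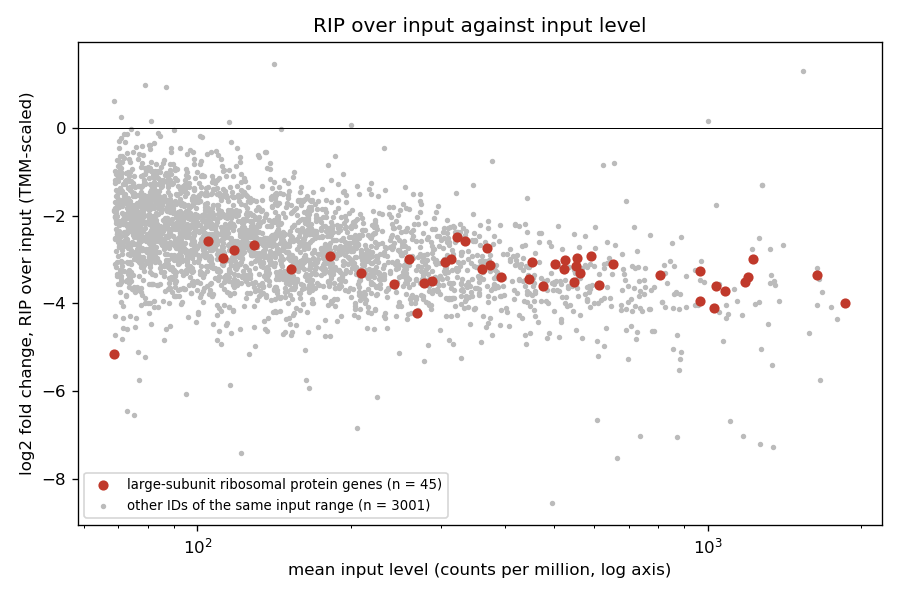
Fitted log2 fold change of RIP over input (TMM-scaled) against mean input level in CPM (log axis), for the 45 large-subunit genes and the 3001 other tested IDs in their input range. The members lie among the other IDs at most input levels, and RPL21, the leftmost member, lies low.

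The members kept much of their input order in RIP. Across the 45 genes, log2 CPM in RIP variant 1 and in input variant 2 had a Pearson correlation of 0.85, and RIP variant 2 and input variant 1 one of 0.91. The inputs had a correlation of 0.997 with each other and the RIP libraries one of 0.92. For the 3001 other IDs the crossed correlations were 0.43 and 0.46 (on log2 of CPM plus 0.1). Most of those IDs lay at the low end of the range, with a median of 130 CPM in input variant 1 (members 448 CPM). A correlation depends on how levels are spread, so the values of the members and of the other IDs are not directly comparable. The genes share libraries and differ in transcript length, which enters both values, so these are descriptions.

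Among the members, the smallest changes belonged to RPL31, RPL30, RPL37, RPL34 and RPL11. RPL31 (ENSG00000071082), which sits at the tunnel exit, had 143 and 116 CPM in RIP variants 1 and 2, against 336 and 309 CPM in inputs 1 and 2. Its log2 fold change was -2.49 (SE 0.24), 5.61-fold lower in RIP (edgeR adjusted p = 0.0010). RPL30 had 29.3 and 50.6 CPM in the RIP libraries, against 114 and 95.9 CPM in the inputs, a log2 fold change of -2.56 (SE 0.35, edgeR adjusted p = 0.0027). Its RIP value with variant 2 came closest of all members to its input, 1.90-fold below it on library totals. RPL37 had 117 and 137 CPM in the RIP libraries, against 331 and 338 CPM in the inputs (log2 fold change -2.57). RPL34 had 36.5 and 54.7 CPM in the RIP libraries, against 130 and 128 CPM in the inputs (log2 fold change -2.68). These low changes are still decreases of over 5-fold on the TMM scale.

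The largest changes belonged to RPL21, RPL7, RPL4, RPLP0 and RPL3. RPL21 (ENSG00000122026) had 2.91 and 5.66 CPM in RIP variants 1 and 2, against 67.8 and 69.6 CPM in inputs 1 and 2. Its RIP values rest on 11.4 and 29.5 counts, with Poisson intervals of 1.47 to 5.15 CPM and 3.81 to 8.11 CPM. The log2 fold change was -5.16 (SE 0.45, edgeR adjusted p = 0.00080), the only member below -5. RPL7 had 29.1 and 36.4 CPM in the RIP libraries, against 276 and 262 CPM in the inputs, with a log2 fold change of -4.21 (SE 0.26, edgeR adjusted p = 0.00060). Counts of RPL21 and RPL7 held fractions of a read in all 4 libraries, and RefSeq lists 137 and 61 pseudogenes named after them. The treatment of reads that match several places is not stated, so both values are uncertain where such copies share reads. Fractions in all 4 libraries were present for 11 members in all, with log2 fold changes up to that of RPL41 (-2.77). Without RIP variant 2 the value of RPL21 was -5.76.

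RPL3 and RPL4 are core proteins with long extensions into the ribosomal RNA, RPL3 near the peptidyl transferase centre and RPL4 along the exit tunnel. RPL3 had 130 and 152 CPM in the RIP libraries, against 1003 and 930 CPM in the inputs. RPL4 had 86.1 and 185 CPM in the RIP libraries, against 1016 and 1043 CPM in the inputs. Their log2 fold changes were close, at -3.95 (SE 0.23) and -4.10 (SE 0.40), the value of RPL4 being -4.73 without RIP variant 2. Their RIP libraries differed from each other to unequal extents, the CPM with variant 2 being 2.15 times that with variant 1 for RPL4 and 1.17 times for RPL3.

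RPL5 and RPL11 bind 5S ribosomal RNA, and outside the ribosome this particle restrains MDM2, the ligase that degrades p53. RPL5 had 160 and 211 CPM in the RIP libraries, against 1079 and 1084 CPM in the inputs, with a log2 fold change of -3.72 (SE 0.24, edgeR adjusted p = 0.00060). RPL11 (ENSG00000142676) had 126 and 124 CPM in the RIP libraries, against 364 and 376 CPM in the inputs, with a log2 fold change of -2.74 (SE 0.22, edgeR adjusted p = 0.00067). These partners of 1 particle thus lay near opposite ends of the list. The difference between them was not tested.

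The stalk recruits translation factors to the ribosome. RPLP0 anchors it, RPLP1 and RPLP2 form its arms, and RPL12 lies at its base. All 4 were lower in RIP, with a median log2 fold change of -3.59 (range -3.99 to -3.30). RPLP0, which had the most input counts of the family, had 174 and 355 CPM in the RIP libraries, against 1907 and 1817 CPM in the inputs. RPLP2 had 153 and 234 CPM in the RIP libraries, against 1064 and 1015 CPM in the inputs. RPLP1 had 51.3 and 181 CPM in the RIP libraries, against 599 and 626 CPM in the inputs, and RPL12 had 66.3 and 192 CPM against 554 and 572 CPM. In RIP, all 4 had a lower CPM with variant 1 than with variant 2, as had 40 of the 45 members. Of the 4, RPLP1 and RPL12 stood furthest apart. The log2 fold change of RPLP1 was -3.58, and it was -4.73 without RIP variant 2 and -2.97 without RIP variant 1. That of RPL12 was -3.30, and it was -4.24 without RIP variant 2.

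The 7 tunnel exit genes had a median log2 fold change of -3.20 (range -3.48 to -2.49). RPL23A had 94.4 and 170 CPM in the RIP libraries, against 512 and 494 CPM in the inputs, with a log2 fold change of -3.10 (SE 0.33). RPL35 (ENSG00000136942) had 87.3 and 273 CPM in the RIP libraries, against 862 and 753 CPM in the inputs, with a log2 fold change of -3.34 (SE 0.53, edgeR adjusted p = 0.0040). Without RIP variant 2 its log2 fold change was -4.36. The family's median log2 fold change, which includes both SRP-docking proteins, was -3.22. RPL17, RPL19, RPL26 and RPL39 had log2 fold changes of -3.48, -3.40, -3.01 and -3.20, with RPL17 at -4.21 without RIP variant 2. RPL39 encodes a very small protein inside the tunnel, and had 28.8 and 46.1 CPM in the RIP libraries, against 158 and 147 CPM in the inputs.

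RPL10, RPL24 and RPL29 had log2 fold changes of -3.39, -3.55 and -3.06. RPL10 is among the last proteins to join the subunit, in the cytoplasm, and RPL24 joins there in yeast. RPL10 had 55.2 and 114 CPM in the RIP libraries, against 389 and 397 CPM in the inputs. RPL24 had 29.8 and 63.9 CPM in the RIP libraries, against 246 and 240 CPM in the inputs. RPL13A and RPL13 followed RPLP0 in mean CPM of the inputs, although RPL8 and RPL19 had more counts than RPL13 in input variant 1. RPL13A, known for a second role in silencing translation of inflammatory mRNAs, had 242 and 484 CPM in the RIP libraries, against 1660 and 1619 CPM in the inputs (log2 fold change -3.35). RPL13 had 232 and 469 CPM in the RIP libraries, against 1202 and 1257 CPM in the inputs (log2 fold change -2.99). Both thus had RIP values with variant 2 that were near 2 times those with variant 1. RPL9, with few input counts, had 18.4 and 46.4 CPM in the RIP libraries, against 117 and 108 CPM in the inputs (log2 fold change -2.97). Without RIP variant 2 the log2 fold changes of RPL10, RPL24 and RPL9 were -3.99, -4.18 and -3.76. The remaining genes outside these role groups brought that set to 27, all called lower, with log2 fold changes from -5.16 (RPL21) to -2.56 (RPL30) and a median of -3.11.

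Members with and without an opening pyrimidine run had close medians. The 27 genes with a run of at least 5 letters had a median log2 fold change of -3.20, and the 10 without it one of -3.44. RPL31 and RPL21, the extremes of the family, both have such a run, as the printed windows show. The difference was not tested.

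Each variant was then set against its own input, with no test because each side is 1 library. With variant 1 the members had a median log2 ratio of RIP over input of -3.65 (range -5.71 to -2.41), and with variant 2 of -2.91 (range -4.74 to -2.09). All 45 were at least 2-fold lower in RIP with either variant, against 23.1% of tested IDs with variant 1 and 21.2% with variant 2. On library totals the medians were -2.47 and -1.74. There, 45 members were at least 2-fold lower with variant 1 (14.3% of tested IDs) and 44 with variant 2 (11.8% of tested IDs), the exception being RPL30. Of the 3001 other IDs in the members' input range, 69.1% and 71.1% were that much lower on library totals with variants 1 and 2. The ratios of the variants, which share no library, correlated over the 45 genes (Pearson 0.67, Spearman 0.58).

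**Figure D3:**
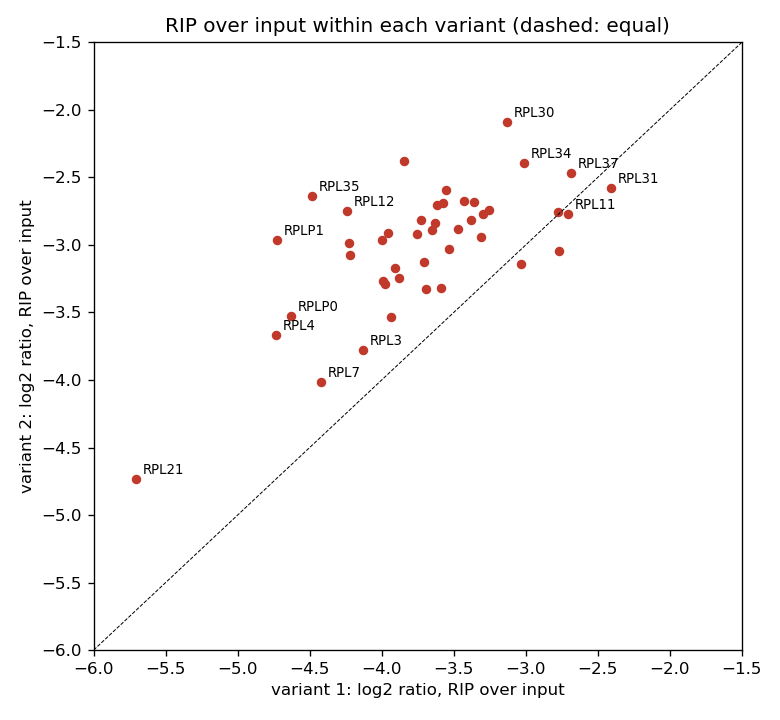
Log2 ratio of RIP over input (TMM-scaled, prior count 2) with variant 1 on the horizontal axis and variant 2 on the vertical axis, 1 point for each of 44 genes. Most points lie above the dashed line of equal ratios, with RPLP1, RPL35 and RPL12 furthest from it and RPL31 below it.

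The RIP libraries of the variants differed in their large-subunit mRNAs, while the inputs hardly did. The log2 ratio of RIP variant 1 over RIP variant 2 was below 0 for 40 of the 45 genes, with a median of -0.66 (range -1.80 to 0.31, SD 0.46 over genes). Over all tested IDs 51.1% were below 0, over the 3001 IDs in the members' input range 48.5%, and over the 398 IDs in the interquartile range 43.0%. The medians of these sets were -0.03, 0.03 and 0.12. Within the interquartile range 20 of the 23 members were below 0, with a median of -0.70. The ratio of input variant 1 over input variant 2 had a median of 0.04 (range -0.13 to 0.27, SD 0.08). All 45 input levels lay within 20% of each other between variants. That share was not computed for other IDs, so the count is no result about ribosomal protein mRNAs. For the 3001 IDs in the members' input range, the input ratio had a median of 0.02 (SD 0.20). In bulk RNA such as the inputs, the number of cells with an mRNA and its amount per cell cannot be told apart.

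A ratio of -1 or less, at least 2-fold lower with variant 1, was present for 10 of the 45 members (22.2%), against 22.8% of all tested IDs, 9.80% of those in the members' input range and 6.78% in the interquartile range. Of the 23 members in the interquartile range, 4 had it (17.4%). The share of members was near that of all tested IDs, but above the shares of other IDs of similar input level. These differences were not tested. The 10 members were RPLP1, RPL35, RPL12, RPL9, RPL17, RPL4, RPL24, RPL10, RPLP0 and RPL13. RPLP1 (ENSG00000137818) stood furthest apart, with 51.3 CPM in RIP variant 1 (exact Poisson interval at 95%, 44.4 to 58.9), against 181 CPM in RIP variant 2 (170 to 193), a log2 ratio of -1.80. RPL35 had 87.3 CPM in RIP variant 1 (78.3 to 97.1), against 273 CPM in RIP variant 2 (259 to 288), a log2 ratio of -1.63. RPL12 had 66.3 CPM (58.5 to 74.9) and 192 CPM (180 to 204) in RIP variants 1 and 2, a log2 ratio of -1.52. The input ratios of these 3 genes were -0.04, 0.22 and -0.02.

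In the opposite direction, RPL31, RPL35A, RPL27, RPL11 and RPL41 had ratios from 0.03 to 0.31. RPL31 had 143 CPM in RIP variant 1 (131 to 155), against 116 CPM in RIP variant 2 (107 to 126), the only member whose Poisson intervals lay apart in that direction, against 30.1% of the other IDs in the members' input range. They lay apart with variant 2 higher for 36 members, against 25.4% of all tested IDs and 28.2% of those in the input range. The intervals cover counting error only, between 1 library each. RPL41, which encodes the smallest ribosomal protein, had 39.3 and 38.7 CPM in RIP variants 1 and 2. RPL35A had 59.2 and 50.7 CPM in RIP variants 1 and 2. RPL11 and RPL35A, with RPL5, are among the genes mutated in Diamond-Blackfan anaemia, a failure of red cell production. These ratios rest on 1 library per variant, and RIP variant 1 was also the shallower library, so variant and library cannot be told apart.

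**Figure D4:**
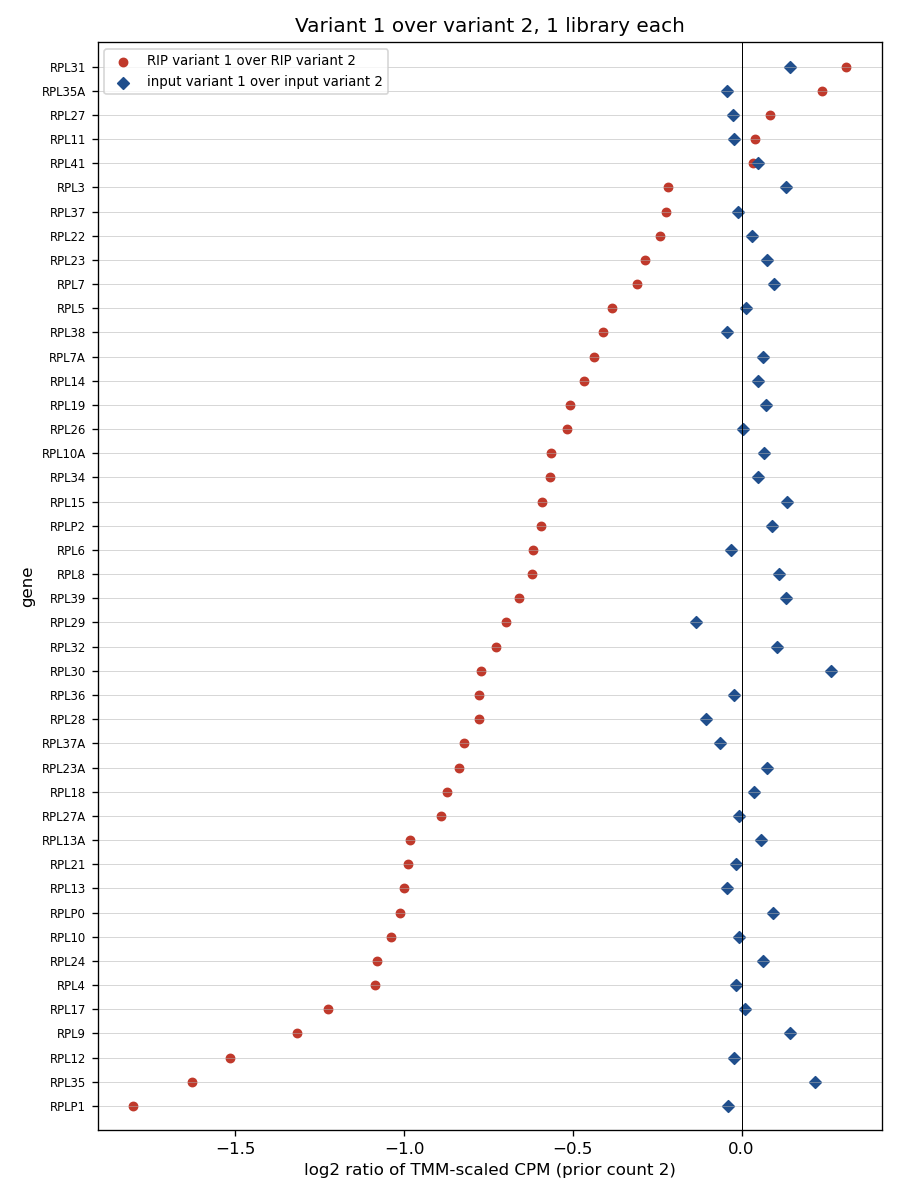
Log2 ratio of variant 1 over variant 2 (TMM-scaled CPM, prior count 2) for 44 of the 45 genes, with RIP libraries as circles and inputs as diamonds. The RIP ratios spread from -1.80 to 0.31, most of them below 0, and the input ratios stay between -0.13 and 0.27.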

How the data were processed

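Per the submitters' processing notes, HISAT2 2.1.0, featureCounts and Subread 2.0.0 were used with build GRCh38.p13. The sources used here do not give the annotation release, the strand setting or how multi-mapping reads were treated. Deposited values were estimated counts per Ensembl ID, partly fractional (13.9% to 18.0% of a library's values), and were rounded for tests. Symbols come from the member list. The values of 1 member are not reported by themselves here. The other IDs could not be named, so the small-subunit, paralog, assembly-factor and cell-type marker lists, the cell type and the transfected gene were not examined. Members and lists were chosen with earlier results of these data known. Named genes are the 5 highest and 5 lowest members by log2 fold change, 3 highest and 3 lowest by input CPM, the 3 with the largest RIP difference between variants, and the role groups.

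RIP was compared with input by edgeR 4.0.16 (R 4.3.3): TMM scaling, expression filter by fraction (minimum count 10), quasi-likelihood test, 2 residual degrees of freedom, call at adjusted p under 0.05. SEs are the log2 fold change over the root of its F. Simulated data were used to test the fit, with few IDs changed and as many up as down. Far more IDs were called in the real data, so the simulation does not show how reliable those calls are. Ratios of single libraries use a prior count of 2. By the labels, RIP and input of a variant come from the same experiment. The variant differences of RIP and input had a correlation of -0.0045 across tested IDs. The alternatives are other scalings, no filter, abundant IDs alone, DESeq2 1.42.0, the pairing as a block, and each library left out.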

Additional observations from a re-analysis of the deposited data

How the results depend on the processing

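All 45 members were called lower and 0 higher under TMM scaling, library totals, the size factors and the Wald test of DESeq2, no filter and abundant IDs alone. The 26 named members kept direction and call under each of these. Over all tested IDs, 5548 (size factors) and 5989 (Wald test) of 41622 were called lower. Without the filter 7001 of 55003 were, and 3658 of 15450 abundant IDs. Of the 3001 other IDs in the members' input range, 97.7% were called lower under TMM scaling and 74.8% on library totals. With any 1 library left out, every member's log2 fold change stayed at -2.26 or below. Of the 26 named members, 9 had folds that moved by over 1.5 times without RIP variant 2. All 9 moved further down (log2 shifts from -1.15 to -0.60). Without RIP variant 1 the fold of RPLP1 moved by that much (0.61). These counts cover the named members alone. The median log2 fold change of -3.22 became -2.04 on library totals and -2.10 when only IDs reaching 50 counts in both inputs were fitted. It ranged from -3.64 (without RIP variant 2) to -2.95 (without RIP variant 1) with 1 library left out, when the lone library is assumed to vary like the others. With the pairing as replicate block, 45 were called lower and 0 higher, the median was -3.27 and no call changed. Summed over the members, RIP over input came to 0.075 (variant 1) and 0.124 (variant 2) after TMM scaling, and to 0.170 and 0.279 on library totals. The median log2 ratio of RIP over input became -2.47 with variant 1 and -1.74 with variant 2 on library totals, against -3.65 and -2.91. Between variants it became -0.68 for the RIP libraries and 0.015 for the inputs, against -0.66 and 0.04. A prior count of 0.5 moved no median of the members by 0.01 or more. The 10 members at least 2-fold lower in RIP variant 1 than in RIP variant 2 became 11 on library totals and with that prior count. Depth limits RPL21 most, with 11.4 counts in RIP variant 1.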

Other observations

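Many large-subunit genes carry genes of small nucleolar RNAs (snoRNAs), which guide modification of ribosomal RNA, within their introns. By RefSeq, 20 of the 45 genes hold at least 1 of 41 snoRNA genes between their start and end. Among them are RPL3, RPL4, RPL7A, RPL13A and RPL23A with 4 each. Intron positions and strand were not checked. The 20 hosts had a median log2 fold change of RIP over input of -3.30 (range -5.16 to -2.56), and the 25 other members one of -3.14 (range -4.21 to -2.49). Their median log2 ratios of RIP variant 1 over RIP variant 2 were -0.78 and -0.57. These splits were chosen after the data were seen and were not tested.

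Ribosomal protein genes have many retrotransposed copies. RefSeq lists 1221 pseudogenes named after the 45 members, from 5 to 137 per gene with a median of 19. The number of named pseudogenes had a Spearman correlation of -0.01 and a Pearson correlation of -0.33 with the log2 fold change over the 45 genes, and RPL21, with the most copies, had the lowest value. RPL31, with 64, had the highest log2 fold change. Fractions of a read were present in at least 1 library for 39 members. These had a median log2 fold change of -3.29, and the 6 members with whole counts in all 4 libraries (RPL11, RPL18, RPL27, RPL35A, RPL37A and RPLP1) one of -3.04.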
